A study of Homo sapiens with 6 samples.

Results

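Kinesins are the motor proteins that walk along microtubules, and the genes described here are the human kinesins named KIF with a number, KIFC1 to KIFC3, and the kinesin light chains KLC1 to KLC4. These names picked 46 genes of the 20036 in the count table by symbol alone. The genes were divided by their known main role into 14 mitotic kinesins, 15 transport kinesins, 4 light chains and 13 others. Kinesins and roles were, however, chosen with earlier results of these data known. The cells were PANC-1, a long-established line grown from a human pancreatic carcinoma. The cells of one group had received a lentivirus that knocks down SHMT2, the mitochondrial serine hydroxymethyltransferase, and the other a null virus, with 3 libraries in each. Both groups were thus virus-treated. The labels state neither the knockdown construct, nor the time after virus, nor whether replicates were separate cultures, so p-values rest on a spread among libraries that may be technical only.

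Kinesins share a motor domain that turns ATP hydrolysis into steps, mostly towards the fast-growing plus end of the microtubule. Mitotic kinesins push spindle poles apart, align chromosomes, trim microtubule ends and build the midzone where the daughter cells separate, and many of them are made mainly in G2 and mitosis. Transport kinesins carry vesicles, organelles and ciliary cargo, and the light chains couple the kinesin-1 heavy chains to such cargo.

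The libraries held 16748432 to 19075734 counts in SHMT2 knockdown cells and 15405884 to 16366452 counts in null-virus cells. SHMT2 itself had 139, 56 and 101 counts in knockdown libraries 1, 2 and 3, against 2113, 2284 and 2417 counts in null-virus libraries 1, 2 and 3, so that 3.55% of the control level was left. In each group 1 library differed from the rest. Counts of knockdown libraries 1 and 3 differed by a chi-square of 2.21 per gene, but each differed from library 2 by 59.5 or 60.8, and null-virus libraries 2 and 3 differed by 1.92, but from library 1 by 20.8 or 24.8. The share of mitochondrial transcripts was 10.4% in knockdown library 2, while knockdown libraries 1 and 3 had 4.72% and the null-virus libraries ran between 5.78% and 6.86%. Libraries also differed in GC tilt. For it, each gene's log2 level was taken relative to that gene's mean over the 6 libraries. The tilt is the median of the fifth of genes lowest in GC content less that of the fifth highest. Its sign is therefore relative to the mean of the 6 libraries. It was 0.28 to 0.46 in the knockdown libraries and -0.50 to -0.10 in the null-virus libraries, and null-virus library 1 lay nearest to the knockdown libraries.

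Of the 46 genes, 38 passed the filter on low counts and were tested. At an adjusted p below 0.05 (edgeR quasi-likelihood test, Benjamini-Hochberg adjustment over all 12292 genes tested), 15 kinesin genes were higher in SHMT2 knockdown cells, 8 were lower and 15 passed in neither direction. Over all tested genes 26.7% were higher and 25.1% were lower, 51.8% in all. The groups did not overlap in 19 members that were higher and 9 that were lower in every knockdown library, beside 31.3% and 30.2% of all tested genes, 61.4% in all. Null-virus library 1 lay on the knockdown side of the other null-virus libraries in 16 of the 23 called members, 12 of them among the 15 that were higher. Among the mitotic kinesins 6 of 12 tested were higher and 3 lower, and among the transport kinesins 6 of 15 were higher and 2 lower. None of the 3 tested light chains passed in either direction, and the other kinesins gave 3 higher and 3 lower of 8. The median log2 fold change, knockdown over null virus, was 0.47 for mitotic and 0.40 for transport kinesins, 0.18 for the light chains and 0.27 for the others, beside 0.00 for all tested genes. The roles were more alike in their medians than in their range, which ran from -0.46 to 2.73 for mitotic kinesins and from -0.63 to 0.74 for transport kinesins. Whether the roles differ was not tested, because the genes of a role are not replicates. Without the pair of libraries that stood apart, 18 members were higher and 10 lower, with 36.9% and 36.7% of all genes called, and the mitotic kinesins gave 7 higher and 3 lower against 8 and 3 for transport.

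**Figure D1:**
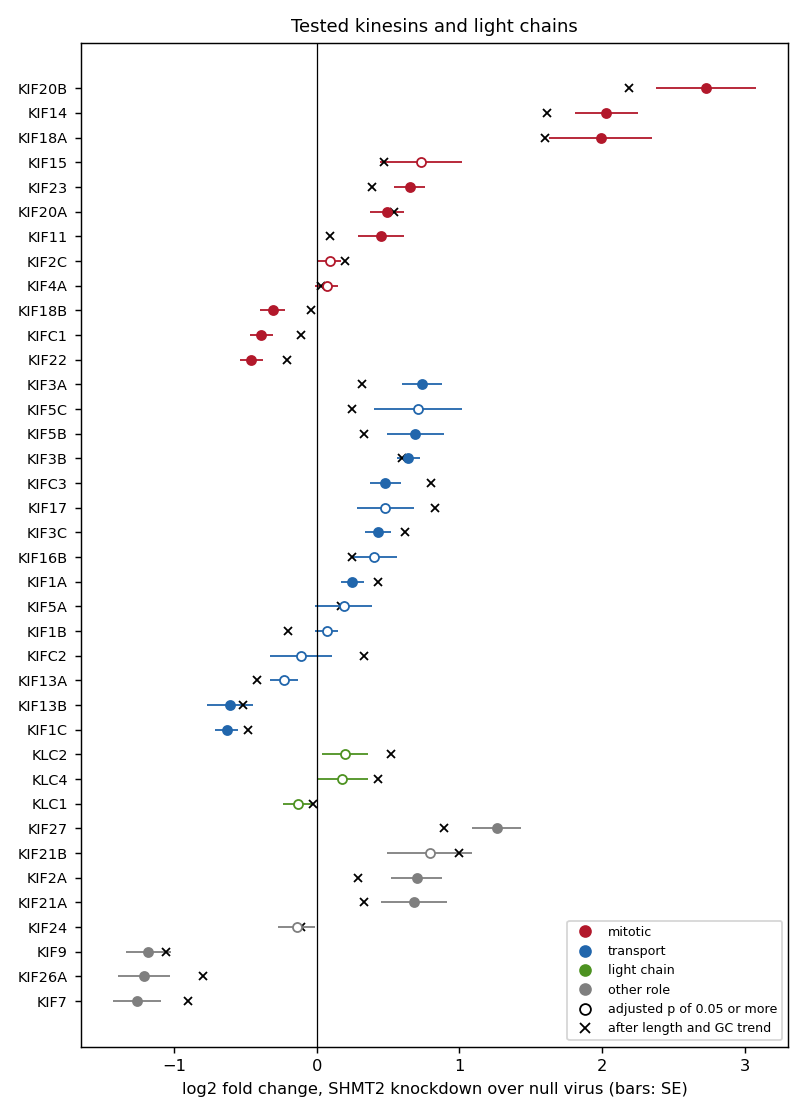
Log2 fold change (SHMT2 knockdown over null virus) of the 38 tested kinesins and light chains by role, with bars for the standard error and filled points for an adjusted p below 0.05; crosses give the value after a trend on gene length and GC content was subtracted. KIF20B, KIF14 and KIF18A stand above 1.9, and KIF7, KIF26A and KIF9 lie below -1.1.

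The mitotic kinesins whose values are described first are shown here by the start of their genes, because CCAAT boxes and the TTTGAA core of the cell cycle homology region are common near the starts of genes made in G2 and mitosis. Windows of 300 bases, 250 before and 50 from the annotated start on, were taken from RefSeq (GRCh38.p14) and matched 36 of the 46 genes by symbol. CCAAT and TTTGAA were searched on both strands, where the reverse complements read ATTGG and TTCAAA, and the motifs do not overlap each other. Both motifs were found in the windows of 9 of 14 mitotic kinesins, 1 of 11 transport kinesins (KIF5B), 0 of 2 light chains and 0 of 9 others, beside 6.1% of all 27305 promoters in the table. CCAAT, with or without TTTGAA, was in 35.7% of all promoters, and TTTGAA, with or without CCAAT, in 15.4%. Both motifs stood in the windows of mitotic kinesins that were higher in knockdown cells (KIF14, KIF20B, KIF23, KIF18A, KIF11), lower (KIFC1, KIF18B) and neither (KIF4A), and in that of KIF4B, which was too low to test. The windows of the 8 mitotic kinesins whose values are given first, 5 that rose and KIF22, KIFC1 and KIF18B, which fell, are given from 5′ to 3′ with the motif letters in capitals, so that both directions can be read side by side.
KIF20B, chr10:89701340-89701639, plus strand: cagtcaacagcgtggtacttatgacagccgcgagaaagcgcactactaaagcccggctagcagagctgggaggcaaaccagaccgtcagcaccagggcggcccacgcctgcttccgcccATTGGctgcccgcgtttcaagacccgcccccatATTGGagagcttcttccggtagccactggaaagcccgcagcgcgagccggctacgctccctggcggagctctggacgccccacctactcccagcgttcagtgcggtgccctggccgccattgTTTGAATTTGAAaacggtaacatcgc
KIF14, chr1:200620702-200621001, minus strand: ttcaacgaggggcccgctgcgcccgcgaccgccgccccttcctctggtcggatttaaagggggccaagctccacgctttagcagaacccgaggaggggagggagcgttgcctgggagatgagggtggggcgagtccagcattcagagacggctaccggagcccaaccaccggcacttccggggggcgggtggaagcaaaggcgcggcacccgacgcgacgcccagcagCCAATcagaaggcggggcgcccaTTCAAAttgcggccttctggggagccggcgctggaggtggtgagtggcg
KIF18A, chr11:28108107-28108406, minus strand: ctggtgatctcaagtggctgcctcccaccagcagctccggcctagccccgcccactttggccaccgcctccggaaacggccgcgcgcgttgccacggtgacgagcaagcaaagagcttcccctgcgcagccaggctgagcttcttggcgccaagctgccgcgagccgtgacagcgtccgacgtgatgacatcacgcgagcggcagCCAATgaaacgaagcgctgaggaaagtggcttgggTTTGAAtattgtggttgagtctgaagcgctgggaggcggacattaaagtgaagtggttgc
KIF23, chr15:69414099-69414398, plus strand: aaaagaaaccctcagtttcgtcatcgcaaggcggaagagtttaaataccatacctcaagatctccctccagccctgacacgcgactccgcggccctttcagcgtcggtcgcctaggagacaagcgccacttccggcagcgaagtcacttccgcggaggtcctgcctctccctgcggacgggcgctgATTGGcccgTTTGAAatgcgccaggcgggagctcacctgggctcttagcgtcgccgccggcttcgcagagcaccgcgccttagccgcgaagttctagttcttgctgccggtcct
KIF20A, chr5:138178862-138179161, plus strand: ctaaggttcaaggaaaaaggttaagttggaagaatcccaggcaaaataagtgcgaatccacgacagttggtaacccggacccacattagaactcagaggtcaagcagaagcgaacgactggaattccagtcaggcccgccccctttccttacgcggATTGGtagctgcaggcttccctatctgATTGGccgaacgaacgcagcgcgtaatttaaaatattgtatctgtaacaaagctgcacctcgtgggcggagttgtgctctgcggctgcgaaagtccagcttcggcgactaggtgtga
KIF22, chr16:29790501-29790800, plus strand: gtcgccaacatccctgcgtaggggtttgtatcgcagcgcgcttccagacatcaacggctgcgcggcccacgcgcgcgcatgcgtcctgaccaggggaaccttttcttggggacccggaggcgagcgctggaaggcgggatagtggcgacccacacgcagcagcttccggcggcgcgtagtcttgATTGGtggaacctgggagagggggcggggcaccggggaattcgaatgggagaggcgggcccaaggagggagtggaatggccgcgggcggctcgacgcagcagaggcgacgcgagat
KIFC1, chr6:33391573-33391872, plus strand: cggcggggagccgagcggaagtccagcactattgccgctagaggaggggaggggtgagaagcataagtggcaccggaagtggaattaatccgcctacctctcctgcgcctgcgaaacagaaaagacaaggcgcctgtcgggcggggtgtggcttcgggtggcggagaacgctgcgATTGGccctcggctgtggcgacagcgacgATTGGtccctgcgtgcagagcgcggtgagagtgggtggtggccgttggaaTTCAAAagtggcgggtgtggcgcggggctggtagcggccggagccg
KIF18B, chr17:44947724-44948023, minus strand: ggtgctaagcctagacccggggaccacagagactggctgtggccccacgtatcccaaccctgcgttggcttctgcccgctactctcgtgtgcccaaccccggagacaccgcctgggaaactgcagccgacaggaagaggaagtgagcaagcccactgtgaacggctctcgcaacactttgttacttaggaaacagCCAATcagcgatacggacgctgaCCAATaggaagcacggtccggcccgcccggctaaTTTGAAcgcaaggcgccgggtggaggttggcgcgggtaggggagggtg
In KIF20B, TTTGAA occurs as a tandem pair that begins 24 and 30 bases after the start base, and CCAAT, on the minus strand, at -131 and -98. The TTTGAA match begins at 1 in KIF14, 2 in KIF18B, 4 in KIFC1, -10 in KIF18A and -55 in KIF23. The windows of KIF20A and KIF22 hold CCAAT, at -94 and -67 in KIF20A and at -66 in KIF22, but not TTTGAA. A match of these letters is a description of the window and not evidence of a bound factor.

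The largest changes among the mitotic kinesins were rises of KIF20B, KIF14 and KIF18A, which act late in mitosis or in chromosome alignment. KIF20B, a kinesin-6 of the midzone and midbody that works in cytokinesis (chromosome 10, 89701590 to 89774939, plus strand), had 83.9, 146.7 and 93.8 CPM in knockdown libraries 1, 2 and 3, against 25.2, 12.5 and 11.1 CPM in null-virus libraries 1, 2 and 3. The groups did not overlap, and knockdown library 2 and null-virus library 1 were the highest of their groups. The difference was 6.62-fold (log2 fold change 2.73, SE 0.35, adjusted p = 0.000635). KIF14, a kinesin-3 that localises to the midbody with citron kinase (chromosome 1, 200551497 to 200620751, minus strand), had 135.2, 146.1 and 140.3 CPM in knockdown cells, against 47.1, 31.1 and 24.9 CPM in null-virus cells. Its knockdown libraries lay close together, and its log2 fold change was 2.03 (SE 0.22, adjusted p = 0.000282). KIF18A, a kinesin-8 that dampens the movement of kinetochore microtubule plus ends (chromosome 11, 28020619 to 28108156, minus strand), had 52.8, 71.8 and 55.8 CPM in knockdown cells, against 25.6, 9.82 and 9.94 CPM in null-virus cells. It changed by 1.99 on the log2 scale (SE 0.36, adjusted p = 0.00302), and null-virus library 1 lay 52.9% of the way from the other null-virus libraries to the knockdown mean.

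Smaller rises were found for other kinesins of the midzone and the spindle. KIF23 is the motor subunit of centralspindlin, which bundles midzone microtubules. It had 270.0, 316.3 and 278.3 CPM in knockdown cells, against 208.8, 172.4 and 171.3 CPM in null-virus cells, with a log2 fold change of 0.65 (SE 0.11, adjusted p = 0.00244). KIF20A, which brings the chromosomal passenger complex to the midzone, had 167.7, 196.2 and 160.8 CPM in knockdown cells, against 139.4, 120.8 and 114.2 CPM in null-virus cells (log2 fold change 0.49, SE 0.12, adjusted p = 0.00945). Neither gene's groups overlapped. All 3 tested kinesin-6 genes were thus called higher in knockdown cells, beside 26.7% of all tested genes. KIF11, the kinesin-5 that slides spindle poles apart, had a log2 fold change of 0.45 (SE 0.16, adjusted p = 0.0491) at 320.5, 359.0 and 318.4 CPM in knockdown cells, against 310.7, 204.4 and 214.8 CPM in null-virus cells. Null-virus library 1 lay 85.5% of the way to the knockdown mean there. The call of KIF11 was lost without any of knockdown libraries 1, 2 and 3 or null-virus libraries 2 and 3, at adjusted p = 0.0957, 0.119, 0.0851, 0.168 and 0.16, and with RLE size factors, at 0.053, while its adjusted p without null-virus library 1 was 0.00135.

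KIF22, KIFC1 and KIF18B were lower in knockdown cells, each by less than the leading rises. KIF22, the chromokinesin that pushes chromosome arms away from the poles, had 100.6, 101.5 and 100.8 CPM in knockdown cells, against 140.2, 144.7 and 132.1 CPM in null-virus cells (log2 fold change -0.46, SE 0.08, adjusted p = 0.00226). KIFC1, the minus-end-directed kinesin-14 that focuses spindle poles and clusters extra centrosomes, had 123.8, 133.8 and 122.6 CPM in knockdown cells, against 168.6, 170.7 and 159.5 CPM in null-virus cells (log2 fold change -0.39, SE 0.08, adjusted p = 0.00537). Both genes kept the groups well apart, with null-virus library 1 among the other null-virus libraries. KIF18B, a kinesin-8 that shortens astral microtubules, had 50.3, 58.9 and 50.6 CPM in knockdown cells, against 66.4, 65.9 and 65.6 CPM in null-virus cells (log2 fold change -0.31, SE 0.09, adjusted p = 0.027). The paralogs KIF18A and KIF18B were thus called in opposite directions. KIF18B lost its call without knockdown library 1 or 3 or null-virus library 2 or 3, at adjusted p = 0.114, 0.108, 0.0806 and 0.0757, and with scaling by library size alone, at 0.0519. With that scaling 7 mitotic kinesins were higher and 2 lower, against 6 and 3 with TMM. Over all tested genes that scaling gave 3766 higher and 2491 lower, against 3284 and 3088 with TMM.

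**Figure D2:**
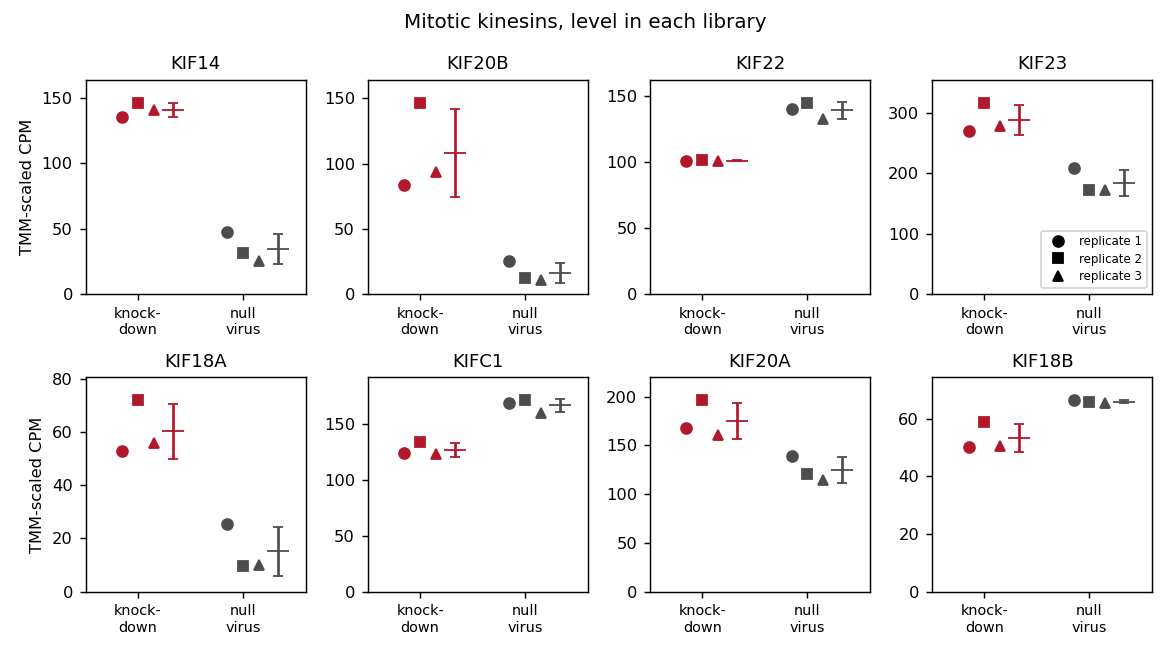
TMM-scaled CPM of 8 mitotic kinesins in each SHMT2 knockdown and null-virus library; marker shapes give the replicate number, and the bar is the mean with its SD (n = 3). The groups do not overlap in any panel, and null-virus replicate 1 is the control library nearest to the knockdown libraries for KIF14, KIF20B, KIF23, KIF18A and KIF20A.

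The remaining mitotic kinesins did not pass the test. KIF15, which backs up KIF11 in holding the spindle bipolar, had 57.2, 66.5 and 54.5 CPM in knockdown cells, against 55.5, 26.9 and 24.9 CPM in null-virus cells. Null-virus library 1 fell among the knockdown libraries, and the log2 fold change of 0.73 (SE 0.29) had an adjusted p of 0.0667. Without null-virus library 1 its log2 fold change was 1.19 (adjusted p = 0.000476). KIF15 passed in 7 of 15 alternative fits, among them DESeq2, limma-voom, library size alone and log2(FPKM + 1), at adjusted p = 0.0344, 0.0369, 0.0492 and 0.0361, and in the others its adjusted p reached 0.198. KIF2C, the kinetochore microtubule depolymerase, averaged 174.9 ± 5.37 CPM in knockdown cells and 164.8 ± 9.92 CPM in null-virus cells (SD, n = 3 each). KIF4A, which works with PRC1 in the midzone, averaged 221.6 ± 10.3 CPM in knockdown cells and 210.5 ± 10.9 CPM in null-virus cells, and the groups overlapped in both genes. KIF4B, a near-identical copy of KIF4A that may share its reads, had 30 counts in the summed knockdown libraries and 27 in the summed null-virus libraries, and KIF2B had 0 counts in all 6.

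Summed over the 14 genes, mitotic kinesins took 1842 ± 137 CPM in knockdown cells and 1401 ± 143 CPM in null-virus cells (SD, n = 3 each), a ratio of 1.31. Transport kinesins took 1519 ± 60.1 CPM in knockdown cells and 1231 ± 119 CPM in null-virus cells, a ratio of 1.23. All 46 genes together took 3644 ± 214 CPM in knockdown cells and 2858 ± 287 CPM in null-virus cells, a ratio of 1.28. Knockdown library 2 had the highest sum of its group at 3891 CPM, and null-virus library 1 the highest of its group at 3188 CPM. In bulk RNA, a change in the share of cells in a cell cycle phase and a change in RNA per cell cannot be told apart.

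**Figure D3:**
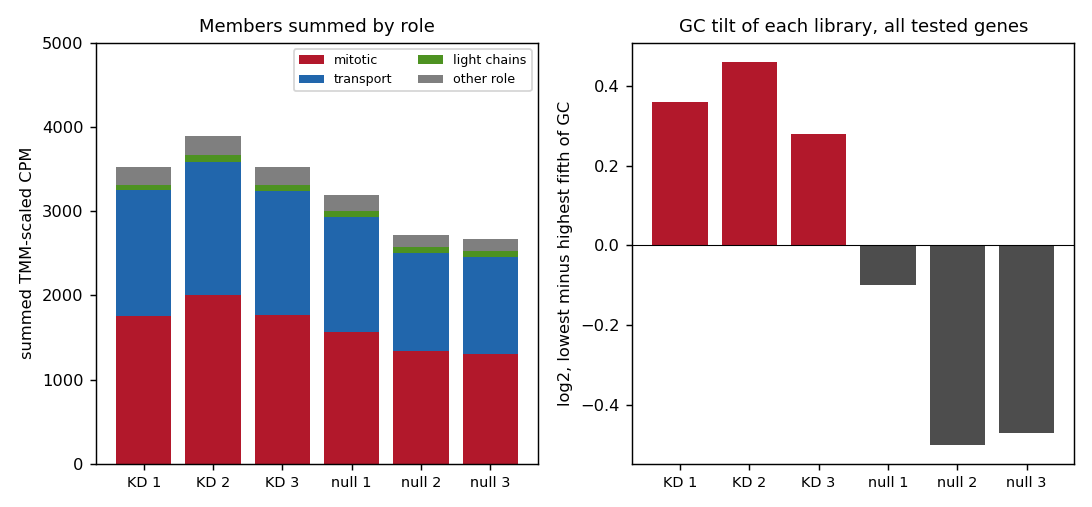
Left, TMM-scaled CPM summed over the kinesins of each role in each library. Right, the GC tilt of each library over all tested genes, relative to the mean of the 6 libraries. KD 1 to 3 are the SHMT2 knockdown libraries, with sums of 3519 to 3891 CPM and positive tilts, and null 1 to 3 the null-virus libraries, with sums of 2667 to 3188 CPM and negative tilts.

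Among the transport kinesins, 3 of the 4 kinesin-2 motors (KIF3A, KIF3B and KIF3C) were higher in knockdown cells, beside 26.7% of all tested genes. KIF3A and KIF3B form, with the adaptor KIFAP3, the heterotrimeric motor of ciliary transport. KIF3B had 209.4, 197.6 and 201.7 CPM in knockdown cells, against 132.8, 131.0 and 128.0 CPM in null-virus cells (log2 fold change 0.64, SE 0.08, adjusted p = 0.000463). KIF3A had 72.6, 80.7 and 61.9 CPM in knockdown cells, against 49.3, 39.9 and 39.4 CPM in null-virus cells (log2 fold change 0.74, SE 0.14, adjusted p = 0.00302). In both genes every knockdown library was above every null-virus library. KIFAP3, which is no kinesin but their shared subunit, averaged 26.5 ± 2.92 CPM in knockdown cells and 10.3 ± 1.25 CPM in null-virus cells (SD, n = 3 each; log2 fold change 1.37, SE 0.14, adjusted p = 0.000228). KIF3C, which can pair with KIF3A in place of KIF3B, had 29.9, 30.7 and 28.9 CPM in knockdown cells, against 21.8, 22 and 22.8 CPM in null-virus cells (log2 fold change 0.43, SE 0.09, adjusted p = 0.00558). KIF17, a kinesin-2 that works as a homodimer, averaged 2.55 ± 0.379 CPM in knockdown cells and 1.82 ± 0.141 CPM in null-virus cells (SD, n = 3 each) and did not pass, at a log2 fold change of 0.48 (SE 0.20, adjusted p = 0.0825).

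The kinesin-3 family, which carries vesicles, split in direction. KIF1C, a carrier of integrin-bearing and dense-core vesicles, had 124.3, 121.0 and 128.6 CPM in knockdown cells, against 183.4, 193.8 and 200 CPM in null-virus cells (log2 fold change -0.63, SE 0.08, adjusted p = 0.000611). KIF13B (chromosome 8, 29067278 to 29263124, minus strand) had 4.02, 5.01 and 3.99 CPM in knockdown cells, against 6.11, 6.88 and 6.90 CPM in null-virus cells (log2 fold change -0.61, SE 0.16, adjusted p = 0.0133). Both genes' groups were apart, but KIF13B is a low gene and lost its call without knockdown library 1 or 3 or null-virus library 3, at adjusted p = 0.0546, 0.053 and 0.0505. In those 3 fits the transport kinesins held 1 lower gene in place of 2. Over all tested genes 2563, 2658 and 2331 were lower in those fits, against 3088 with all 6 libraries. The 25 tested genes on each side of KIF13B had a median log2 fold change of -0.95, and 8% of them were positive, beside a 5th to 95th percentile of -0.46 to 0.49 for such medians over 12273 genes. KIF1A, known for carrying synaptic vesicle precursors in neurons, had 179.5, 202.0 and 188.7 CPM in knockdown cells, against 153.4, 166.5 and 160.4 CPM in null-virus cells. Its groups lay close without overlap (log2 fold change 0.25, SE 0.08, adjusted p = 0.0405), and it lost its call without knockdown library 1 or 3 or any null-virus library, at adjusted p from 0.0644 to 0.125, with upper-quartile factors, at 0.0528, and with no filter on low counts, at 0.0683. With a trend on gene length subtracted its log2 fold change was -0.06. KIF1B, KIF13A and KIF16B did not pass, at log2 fold changes of 0.07, -0.23 and 0.40.

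KIF5B, the widely expressed heavy chain of conventional kinesin, had 494.2, 565.4 and 486.8 CPM in knockdown cells, against 435.0, 266.8 and 259.6 CPM in null-virus cells. Null-virus library 1 lay 75% of the way to the knockdown mean, and KIF5B changed by 0.69 on the log2 scale (SE 0.20, adjusted p = 0.0222). The call was lost without knockdown library 1 or 2 or null-virus library 2 or 3, at adjusted p = 0.0507, 0.0612, 0.0839 and 0.0768, while without null-virus library 1 the adjusted p was 0.000455. Of the heavy chains known mainly from neurons, KIF5A averaged 7.30 ± 0.562 CPM in knockdown cells and 6.38 ± 1.64 CPM in null-virus cells. KIF5C averaged 0.951 ± 0.0234 CPM in knockdown cells and 0.579 ± 0.189 CPM in null-virus cells, and neither passed. KIFC3, a minus-end-directed motor at epithelial junctions and the Golgi, had 50.9, 42.5 and 49.2 CPM in knockdown cells, against 31.4, 36.1 and 34.7 CPM in null-virus cells (log2 fold change 0.48, SE 0.11, adjusted p = 0.00741). There null-virus library 1 was the farthest of its group from the knockdown libraries. KIFC2 did not pass, at a log2 fold change of -0.11 (SE 0.22, adjusted p = 0.703).

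**Figure D4:**
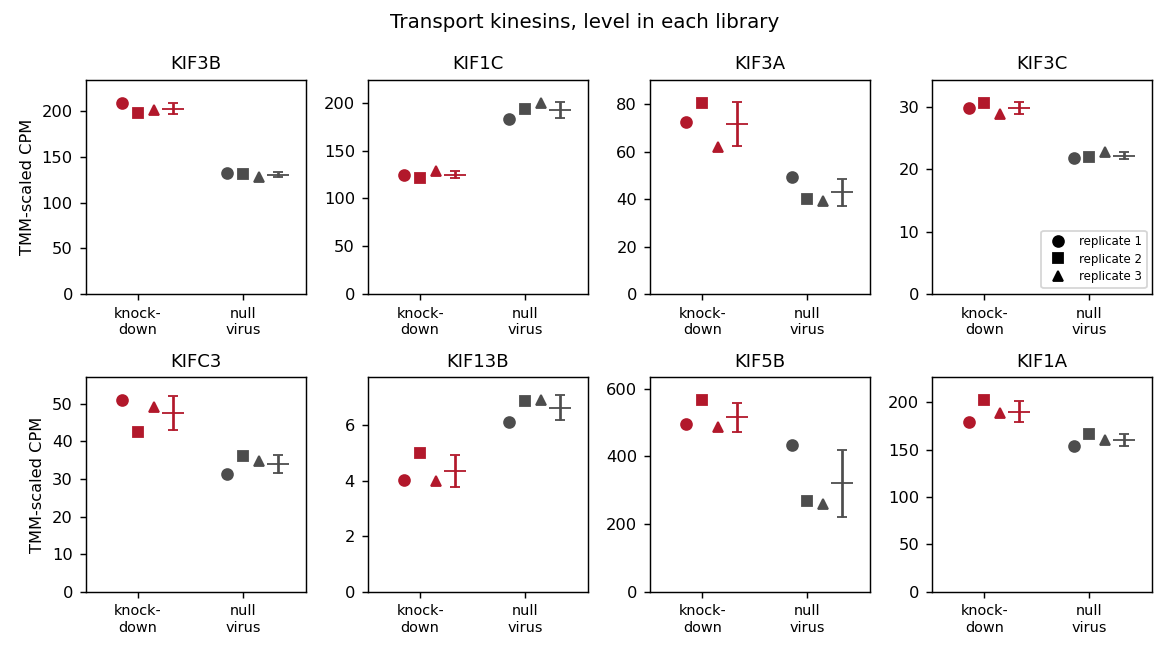
TMM-scaled CPM of 8 transport kinesins in each SHMT2 knockdown and null-virus library; marker shapes give the replicate number, and the bar is the mean with its SD (n = 3). KIF3B, KIF3A, KIF3C, KIFC3, KIF5B and KIF1A are higher and KIF1C and KIF13B lower in every knockdown library, and null-virus replicate 1 of KIF5B sits at 435.0 CPM, near the knockdown libraries.

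The light chains, which bind cargo for the kinesin-1 heavy chains, did not follow KIF5B past the threshold. KLC2 had 37.8, 60.0 and 45.6 CPM in knockdown cells, against 41.9, 41.4 and 41.8 CPM in null-virus cells. KLC1 had 14.6, 15.1 and 14.3 CPM in knockdown cells, against 14.4, 17.4 and 16.3 CPM in null-virus cells. KLC4 had 10.1, 8.37 and 10.8 CPM in knockdown cells, against 7.18, 8.42 and 10.4 CPM in null-virus cells. The groups overlapped in all 3, and the log2 fold changes were 0.20 (SE 0.16, adjusted p = 0.337) for KLC2, -0.13 (SE 0.11, adjusted p = 0.388) for KLC1 and 0.18 (SE 0.18, adjusted p = 0.43) for KLC4. The difference between KIF5B and its light chains was not itself tested. Exons of KLC1 overlap other genes over 30.3% of their length on the opposite strand and 10.3% on the same strand, and with no strand setting given such reads cannot be told apart. KLC3 was too low to test, with 13 counts in the summed knockdown libraries and 18 in the summed null-virus libraries.

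Among the other kinesins, the changes in low genes were large and went both ways. KIF7, the ciliary-tip kinesin of Hedgehog signalling, had 3.48, 2.50 and 3.21 CPM in knockdown cells, against 7.62, 7.82 and 6.71 CPM in null-virus cells (log2 fold change -1.26, SE 0.17, adjusted p = 0.00085). Its paralog KIF27 had 10, 8.61 and 8.49 CPM in knockdown cells, against 4.41, 3.21 and 3.67 CPM in null-virus cells (log2 fold change 1.26, SE 0.17, adjusted p = 0.000735). The paralogs thus passed in opposite directions, with groups that did not overlap. KIF9, known from motile cilia and sperm flagella, had 4.02, 3.18 and 4.14 CPM in knockdown cells, against 7.68, 8.89 and 9.24 CPM in null-virus cells (log2 fold change -1.18, SE 0.16, adjusted p = 0.000891). KIF26A, an atypical kinesin described in mouse as lacking ATPase activity, had 4.42, 3.30 and 3.78 CPM in knockdown cells, against 7.62, 10.1 and 9.05 CPM in null-virus cells (log2 fold change -1.21, SE 0.18, adjusted p = 0.00113). Each of the 4 genes passed in every fit that gave an adjusted p. Other genes overlap 11.8% of the exons of KIF7, 13.1% of those of KIF27 and 17.9% of those of KIF9 on the opposite strand.

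KIF2A, a microtubule depolymerase of spindle poles and growing axons, had 106.6, 109.0 and 109.7 CPM in knockdown cells, against 87.2, 59.3 and 53.2 CPM in null-virus cells (log2 fold change 0.70, SE 0.18, adjusted p = 0.0118). KIF21A, which restrains microtubule growth at the cell cortex, had 49.8, 58.9 and 52.4 CPM in knockdown cells, against 47.5, 27.3 and 25.7 CPM in null-virus cells (log2 fold change 0.68, SE 0.23, adjusted p = 0.0377). Null-virus library 1 was again the highest of its group in both. KIF2A lost its call without null-virus library 2, at adjusted p = 0.0513, and 8.97% of its exons overlap the gene IPO11 on the same strand. KIF21A lost its call without any knockdown library or null-virus library 2 or 3, at adjusted p from 0.0673 to 0.127. KIF21B and KIF24 did not pass, at log2 fold changes of 0.79 (SE 0.30, adjusted p = 0.0557) and -0.14 (SE 0.13, adjusted p = 0.395). Summed over the 3 libraries of each group, KIF12 had 7 counts in knockdown and 4 in null-virus cells, KIF25 had 23 in knockdown and 4 in null-virus cells, and KIF26B had 28 in knockdown and 11 in null-virus cells, all too low to test. KIF6 and KIF19 had 0 counts in every library.

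Levels of different kinesins were compared per length, in the deposited FPKM, which are scaled to library totals without TMM factors. In knockdown cells KIF5B was highest at 90.2 ± 3.54 FPKM (SD, n = 3), followed by KIF11 at 64.2 ± 1.53. KIF4A at 49.8 ± 0.778, KIF2C at 49.4 ± 3.61, KIF20A at 46.6 ± 2.94 and KIF23 at 45.0 ± 1.88 FPKM followed within or close to their spread. In null-virus cells KIFC1 at 53.3 ± 2.16 and KIF5B at 53.1 ± 16.8 FPKM were level, and KIF4A, KIF11 and KIF2C followed at 44.7 ± 2.59, 44.4 ± 10.9 and 43.9 ± 2.43 FPKM. KIFC1 held rank 7 of the 46 genes in knockdown cells and rank 1 in null-virus cells, and KIF20B rank 10 in knockdown cells and rank 26 in null-virus cells. Of the 10 highest in null-virus cells, 7 were mitotic kinesins.

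Log2 fold changes were lower at higher GC content of the transcript, both among kinesins and over all genes. Members that were higher in knockdown cells had a GC content of 34.2% to 64.3% (median 41.6%), and those that were lower had 51.8% to 68.3% (median 58.2%). The mitotic kinesins separated fully, with 34.2% to 48.4% for the 6 that rose and 58.0% to 58.9% for the 3 that fell. Across the 12 tested mitotic kinesins the Spearman rank correlation of log2 fold change with GC content was -0.92, and across the 15 transport kinesins it was -0.40, beside -0.39 across all tested genes. Genes are not independent replicates and share the same 6 libraries, so these are descriptions. After a smooth trend on gene length and GC content over all genes was subtracted, the log2 fold changes of KIF20B, KIF14 and KIF18A were 2.19, 1.61 and 1.6. Those of KIF11, KIF18B, KIFC1 and KIF22 were 0.09, -0.04, -0.11 and -0.21, and the medians were 0.30 for mitotic and 0.32 for transport kinesins. All 23 called members kept their sign. The part of GC content in the calls was not tested, and the tilt and the groups cannot be told apart.

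**Figure D5:**
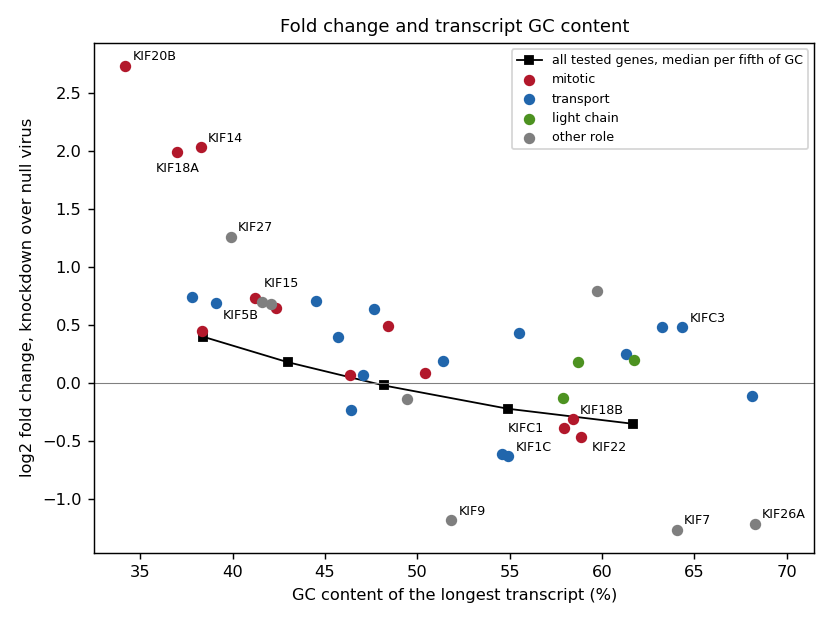
Log2 fold change (SHMT2 knockdown over null virus) of each tested kinesin against the GC content of its longest annotated transcript, coloured by role; the black line joins the medians of all tested genes in 5 equal bins of GC content. KIF20B, KIF14 and KIF18A, at 34.2% to 38.3% GC, lie left of the first point of the line and well above it. That point is at 38.4% GC and a log2 fold change of 0.4. KIF11, KIF18B and KIFC1 lie near the line or its first point.

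Some kinesins lay among chromosomal neighbours with fold changes of the same sign. Among called members, the 25 nearest tested genes on each side had a median log2 fold change of 0.70 around KIF14, 0.54 around KIF18A, 0.49 around KIF5B, 0.42 around KIF11 and 0.40 around KIF20B. The medians around KIF14 and KIF18A, and those of 0.63 and 0.60 around the uncalled KIF21B and KIF5C, were above the 95th percentile of 0.49. On chromosome 1, KIF14 ends at 200620751 and KIF21B starts at 200969390, so they share neighbours and are not separate instances. KIF20B and KIF11, which start at 89701590 and 92574105 on chromosome 10, may also share neighbours. The log2 fold changes of KIF14 and KIF18A themselves, 2.03 and 1.99, were larger than those of their surroundings. Around KIF15 and KIF9 the medians were -0.47 and -0.48, below the 5th percentile of -0.46, so that KIF15, at 0.73, stood against its neighbours. The part of position in these calls was not tested.

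Genes that work with kinesins were called in both directions. The counts below stand beside 26.7% higher and 25.1% lower over all tested genes. Of 25 tested spindle and midzone partners 11 were higher and 5 lower, with a median log2 fold change of 0.38. The largest was CENPE, the kinetochore kinesin-7, which the naming rule leaves out, at 73.2 ± 27.8 CPM in knockdown cells and 7.66 ± 3.14 CPM in null-virus cells (SD, n = 3 each; log2 fold change 3.25, SE 0.35, adjusted p = 0.000306). The kinetochore protein CENPF changed by 2.61, the microtubule polymerase CKAP5 by 1.18 and the mitotic kinase AURKA by 0.62 (adjusted p = 0.00101, 0.00123 and 0.000495). The 5 lower partners were BIRC5 at -0.86, PLK1 at -0.58, AURKB at -0.4, TACC3 at -0.38 and CDCA8 at -0.3. Of 30 genes of G2 and mitosis 12 were higher and 2 lower, with a median of 0.22, among them ASPM at 2.51, CDK1 at 1.06, BUB1 at 0.98 and NEK2 at 0.87. The 2 lower ones were CDC20 at -0.63 and CDCA2 at -0.62. Of 34 S phase genes 1 was higher and 21 lower, with a median of -0.45, among them UHRF1 at -1.18, MCM5 at -1.08, CDT1 at -1.07 and GINS2 at -0.93. The transport side had 11 of 27 tested motor adaptors higher and 9 lower, with a median of 0.02. FEZ1, a kinesin-1 adaptor, changed by 1.71 and the scaffold MAPK8IP2 by -1.29. Genes of dynein and dynactin, the motor that runs the opposite way, gave 1 higher and 9 lower of 27, with a median of -0.07, among them DYNLT3 at 0.67, BICD2 at -0.46, DYNC1LI1 at -0.53 and NDE1 at -0.64.

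Several transport kinesins are best known from neurons, so neuronal markers were measured beside them. Of 10 such markers 5 were tested, 1 was higher and 2 lower, and their summed level was 139.5 to 157.2 CPM in knockdown libraries and 235.3 to 292.3 CPM in null-virus libraries. Most of this sum came from the 2 lower genes. SYT1 averaged 108.5 CPM in knockdown and 192.7 CPM in null-virus cells, and MAP2 27.2 CPM in knockdown and 52.9 CPM in null-virus cells. SNAP25 was higher, at 2.82 CPM in knockdown cells and 0.646 CPM in null-virus cells (log2 fold change 2.11). NEFL, STMN2 and GAP43 had 0 counts in all 6 libraries. Of 9 markers listed for PANC-1 cells 4 were higher and 3 lower. They summed to 3574 CPM in knockdown cells and 4001 CPM in null-virus cells, but without the mesenchymal gene VIM to 2246 CPM in knockdown cells and 1657 CPM in null-virus cells. VIM had 1328 ± 21.1 CPM in knockdown cells and 2344 ± 315 CPM in null-virus cells, and the epithelial keratin KRT19 had 69.8 ± 12.9 CPM in knockdown cells and 0.152 ± 0.137 CPM in null-virus cells (SD, n = 3 each). The 3 lower markers were VIM, EPCAM and SOX9, so the epithelial markers did not move together. EPCAM had 6.95 ± 0.863 CPM in knockdown cells and 18.1 ± 0.527 CPM in null-virus cells (log2 fold change -1.38). SOX9 had a log2 fold change of -0.39. Of 5 endothelial markers only KDR was tested, at 6.2 ± 0.591 CPM in knockdown cells and 0.257 ± 0.00855 CPM in null-virus cells, and the list summed to 5.86 to 7.25 CPM in knockdown libraries and 0.441 to 0.668 CPM in null-virus libraries. Of 6 immune markers only CD14 was tested and was higher (log2 fold change 0.99), the list summed to 2.26 to 3.11 CPM in knockdown libraries and 0.802 to 1.84 CPM in null-virus libraries, and LYZ had 0 counts throughout. Of 7 fibroblast markers COL1A1 and THY1 were tested and lower (log2 fold changes -0.92 and -0.87), the list summed to 43.2 to 49.4 CPM in knockdown libraries and 80.8 to 94.7 CPM in null-virus libraries, and DCN and FAP had 0 counts throughout. The 8 acinar and endocrine markers summed to at most 0.0994 CPM in knockdown libraries and 0.38 CPM in null-virus libraries, and 6 of them had 0 counts throughout. The part of these markers in the kinesin results was not tested.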

How the data were processed

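RNA from 6 PANC-1 libraries was grouped by sample title. Per the labels' protocols, RNA was extracted with TRIzol and libraries prepared with NEBNext Ultra II. The authors deposited read counts and FPKM for each gene, per the file headers. No aligner, counter, build or strand setting was found in the labels. Starts or ends of 79.0% of matched identifiers equal those of GENCODE 29 on GRCh38.

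Counts were filtered with filterByExpr, TMM-scaled and tested with edgeR 4.0.16 (R 4.3.3) without covariates. Trends on length and GC content of the longest transcript used mgcv 1.9.3, and the one with GC content was added after the data were seen. Alternatives used other scalings and filters, DESeq2 1.42.0, limma 3.58.1, a replicate block and left-out libraries. Kinesins, roles and partner lists were chosen with earlier results of these data known. Values per library are given for the 8 mitotic and 8 transport kinesins of smallest adjusted p averaging at least 5 CPM, each tested light chain, the 6 others of smallest adjusted p, and up to 4 called genes per partner list are named, of which 1 is not reported here. Library values of KIF11 and KIF15 were added after being seen, as were the lower genes of the spindle and midzone and the G2 and mitosis lists. In simulated counts of this comparison (12142 genes), 58 genes were changed 1.5-fold, 72 genes 2-fold and 67 genes 4-fold. The test found 24.1%, 81.9% and 100% of these, and 8.5% of calls were false. In the data 51.8% of tested genes were called, a far larger share than was changed in the simulation. The adjusted p depends on that share, so these rates need not hold for the data.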

Additional observations from a re-analysis of the deposited data

How the results depend on the processing

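Of the 23 called members, 16 passed in all 15 fits that gave an adjusted p, and 8 of the 15 uncalled ones passed in none. The median log2 fold change of transport kinesins, 0.40, was 0.48 with library size alone, 0.18 on log2(FPKM + 1), 0.25 over members averaging at least 5 CPM, 0.24 without the length trend and 0.32 without the length and GC trend, which gave 0.30 for mitotic kinesins, against 0.47. Of the called members only KIF1A changed sign, to -0.06 without the length trend. At an adjusted p below 0.01, 1 transport kinesin was lower, and 2143 genes were higher and 2023 lower over the whole table. With 1 library left out, the median was 0.34 to 0.61 for mitotic and 0.28 to 0.45 for transport kinesins. In those fits 10 to 16 members were higher and 6 to 9 lower, and 1 to 2 transport kinesins were lower. Over all tested genes 2440 to 3504 were higher and 2308 to 3465 lower in the same fits. The causes were not tested.

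Same-numbered libraries deviated with correlations of -0.36, -0.34 and 0.37, so the numbers do not pair the samples. With the replicate number as a block, 14 members were higher and 7 lower (mitotic 6 and 2, transport 5 and 2), with medians of 0.48 and 0.42. Over all tested genes 2834 were higher and 2610 lower with the block. The block ended the calls of KIF18B, KIF11 and KIF1A, at adjusted p = 0.0679, 0.0607 and 0.0917, and KIF15 passed with it, at 0.0434. Low genes such as KIF25 and KIF26B did not pass the filter on counts.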
